A study of Mus musculus with 18 samples.

Results

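Chromosome 8 between 8 Mb and 124 Mb held 39097 of the 646397 H3K9me3 peaks in the 6 peak lists of this series. A peak was a member when it lay on chromosome 8, started at base 8000000 or later and ended before base 124000000 of the mouse genome build mm10. The numbers were 7656 and 7894 peaks in wild-type replicates 1 and 2, 5651 and 5581 in *Uhrf1* KO replicates 1 and 2, and 4465 and 7850 in *Dhx9* KO replicates 1 and 2. The chromosome was chosen by its background reads, ChIP reads and peak number, which had already been seen to stand apart in these lists, so these levels are given as descriptions with no test.

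H3K9me3 ChIP-seq was done on E14TG2a cells, a male mouse embryonic stem cell line grown in serum and LIF. Wild-type cells, cells labelled UHRF1KO and cells labelled DHX9KO were compared, with 2 libraries each. The *Uhrf1* KO cells were clonal CRISPR-Cas9 lines made in cells that carry an inducible reporter of heterochromatin, and how the *Dhx9* KO cells were made is not given in the sources used here. The 2 libraries of a genotype are biological replicates by the study's methods, but nothing says that they came from separate cultures, and which *Uhrf1* KO clone each came from is not given in the sources used here, so p-values measure only the spread between these libraries, which may be technical.

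H3K9me3, trimethylation of lysine 9 of histone H3, marks silent chromatin and is bound by HP1 proteins. In mouse embryonic stem cells it lies over repeats, retrotransposons, some gene clusters and the methylated allele of imprinted loci. UHRF1 recognises hemimethylated DNA and recruits DNMT1, which copies DNA methylation after replication. DHX9 is a helicase that unwinds RNA and DNA structures. Extra copies of chromosome 8 are known to arise and spread in cultures of mouse embryonic stem cells. Background reads come from chromatin that was not immunoprecipitated, so their density follows how many copies of a sequence the cells carry. Chromosome X, present once in male cells, shows what a lower copy number looks like in the same lists.

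The 4 stretches printed here show the kinds of sequence behind the results. Each is 300 bases from the centre of a region, read from the plus strand of the mm10 reference, with CG dinucleotides, the sites of DNA methylation, in capitals. The first, chr8:122864651-122864950, lies in the H3K9me3 stretch over *Cdh15* where *Uhrf1* KO cells had no peak. The second, chr8:115283351-115283650, lies in an intron of *Wwox*, in the region called in all 6 lists that was strongest in wild-type cells and is 100% repeats. The third, chr8:20648451-20648750, lies in the strongest region lost in both knockouts and is a repeated sequence. The fourth, chr8:20323451-20323750, lies in a repeat-rich region with fewer reads in *Uhrf1* KO cells. That region is part of a longer one with fewer reads in *Dhx9* KO cells. They hold 15, 11, 0 and 1 CG sites, respectively.
Cdh15 stretch: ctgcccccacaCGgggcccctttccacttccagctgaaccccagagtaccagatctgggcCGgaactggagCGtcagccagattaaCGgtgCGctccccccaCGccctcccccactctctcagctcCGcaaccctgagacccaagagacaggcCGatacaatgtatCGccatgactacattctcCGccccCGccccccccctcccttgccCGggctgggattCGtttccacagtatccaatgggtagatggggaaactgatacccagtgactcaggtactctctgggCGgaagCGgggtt
Wwox intron: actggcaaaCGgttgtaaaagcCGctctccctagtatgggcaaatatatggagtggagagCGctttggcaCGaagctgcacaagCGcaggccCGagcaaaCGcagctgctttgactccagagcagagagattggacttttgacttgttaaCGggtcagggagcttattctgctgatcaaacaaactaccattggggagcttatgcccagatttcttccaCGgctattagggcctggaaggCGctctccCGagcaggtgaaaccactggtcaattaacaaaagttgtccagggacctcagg
Lost in both knockouts: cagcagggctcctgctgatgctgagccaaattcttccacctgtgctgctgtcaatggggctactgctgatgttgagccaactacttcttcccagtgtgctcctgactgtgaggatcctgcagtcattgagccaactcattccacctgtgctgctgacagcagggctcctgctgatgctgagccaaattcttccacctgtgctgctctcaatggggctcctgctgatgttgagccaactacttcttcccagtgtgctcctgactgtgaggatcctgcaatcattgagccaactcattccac
Fewer reads in both knockouts: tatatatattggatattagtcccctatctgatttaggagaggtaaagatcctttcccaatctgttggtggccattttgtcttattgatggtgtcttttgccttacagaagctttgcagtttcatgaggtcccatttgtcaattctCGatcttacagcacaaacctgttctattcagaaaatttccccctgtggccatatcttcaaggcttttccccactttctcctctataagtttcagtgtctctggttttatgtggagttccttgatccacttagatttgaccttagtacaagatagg

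*Dhx9* KO replicate 1 stood apart from the other 5 libraries on chromosome 8, and every *Dhx9* KO result below rests in part on it. Only 4.31% of the ChIP reads in its peaks lay on chromosome 8 between the limits. The other 5 libraries had 9.32%, 9.40%, 8.15%, 8.54% and 9.75%. The same library also had 10909 peaks on chromosome 4, where the other 5 had 3626 to 6395. Values with and without it are therefore given side by side. The background reads were not independent measurements either. In peaks with identical limits in 2 lists, all had the same background count for each pair of wild-type or *Dhx9* KO lists. The same held between both *Uhrf1* KO lists. Between wild-type and *Uhrf1* KO lists, only 2.27% to 4.29% did. The 6 lists thus hold 2 sets of background reads. The study's methods name wild-type input as the background, with which the second set in the *Uhrf1* KO lists is at odds, and its source is not given in the sources used here. The series holds input libraries labelled WT, UHRF1KO and DHX9KO, but they were not compared with these counts. Neither set is known to measure the copy number of the *Uhrf1* KO or *Dhx9* KO cells.

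Background reads were denser on chromosome 8 than on the other autosomes in all 6 lists. The density, pooled over called bases, was 33.9 reads per kb in both wild-type lists, 18.1 and 19.2 in the *Uhrf1* KO lists and 34.0 and 32.3 in the *Dhx9* KO lists. The exact 95% interval for counting error alone was 33.8 to 34.0 in wild-type replicate 1 and 19.2 to 19.3 in *Uhrf1* KO replicate 2. PCR duplicates were kept, so such intervals cover counting error only. The median of the other 18 autosomes was 23.5 reads per kb in both wild-type lists, 12.7 and 13.4 in the *Uhrf1* KO lists and 23.5 and 22.6 in the *Dhx9* KO lists. Chromosome 8 was therefore at 1.45 and 1.44 times that median in wild-type lists, 1.43 and 1.44 in *Uhrf1* KO lists and 1.45 and 1.43 in *Dhx9* KO lists. Lists on the same background reads differ only in which bases were called, so these are not replicate measurements and no SD is given. For comparison, 3 copies against 2 in every cell would give a ratio of 1.5. Pooled alike, the highest other autosome was chromosome 14 in 4 lists, at 1.39 and 1.40 in wild-type and 1.37 and 1.37 in *Dhx9* KO lists. In *Uhrf1* KO replicates 1 and 2 it was chromosome 2 at 3.54 and chromosome 4 at 1.07.

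The excess did not come from a few peaks. By the median over peaks, which extreme peaks do not move, the ratio was 1.40 in both wild-type lists, 1.44 and 1.39 in the *Uhrf1* KO lists and 1.41 and 1.40 in the *Dhx9* KO lists. Each other autosome lay between 0.947 and 1.08 on this measure in *Uhrf1* KO replicate 1, the list with the widest range. Chromosome X lay at 0.491 and 0.493 in the wild-type lists, close to the 0.5 that 1 copy against 2 would give. Pooled over bases, chromosome 8 ranked first among the 19 autosomes in 5 lists and at place 3 in *Uhrf1* KO replicate 1, where chromosome 2 reached 45.0 reads per kb.

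**Figure D1:**
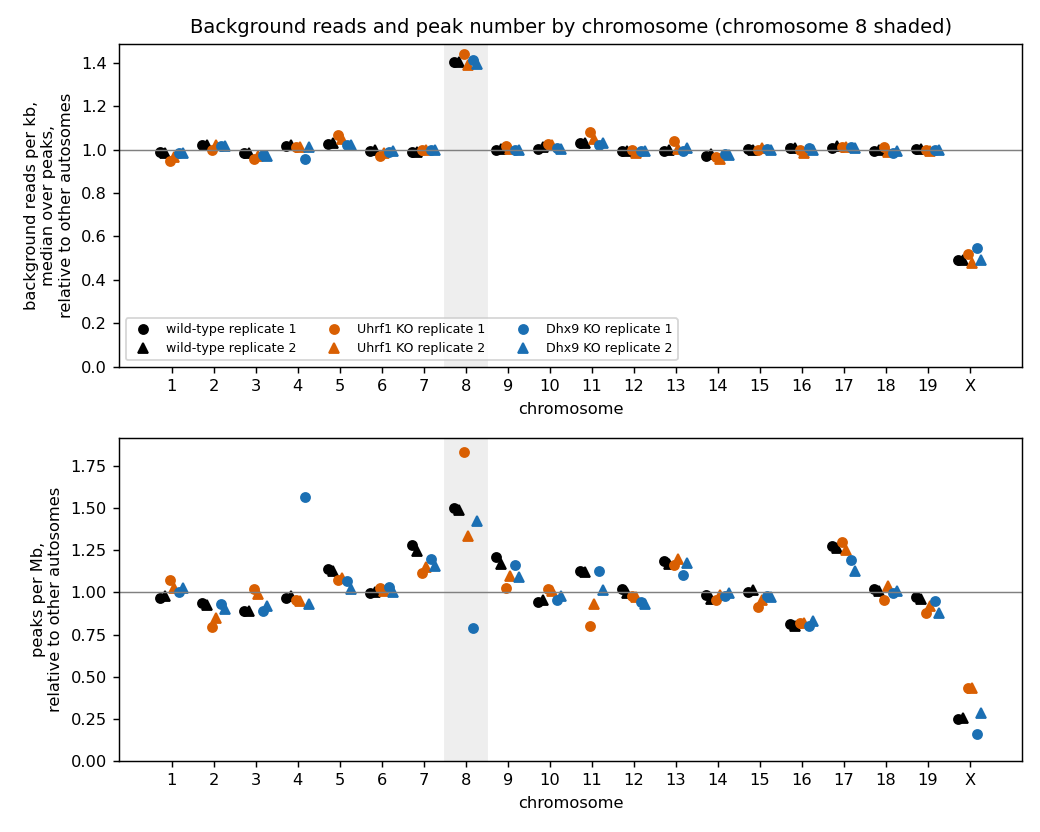
Background reads per kb (top, median over peaks) and peaks per Mb (bottom) by chromosome, each divided by the median of the 18 autosomes other than chromosome 8; each point is 1 library. Chromosome 8 lies near 1.4 for background in all 6 lists and chromosome X near 0.5, while in peak number *Dhx9* KO replicate 1 lies at 0.790 and the other 5 at 1.33 to 1.83.

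The excess of background reads ran along the whole chromosome. In 12 windows, each of 10 Mb except a shorter last one, the ratio to the other autosomes was 1.25 to 1.63 in wild-type replicate 1, with the lowest value in window 5 and the highest in window 2, counted from the centromere. In *Uhrf1* KO replicate 1 it was 1.18 to 1.75, the widest range of the 6 lists. Every window of every list was above 1. The lists followed each other along the chromosome, and windows 2, 8 and 12 had the 3 highest values in each. Window 2 holds all 46 defensin genes of the list given further on and the repeat-rich regions near 20 Mb.

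The 2 sets of background reads were then compared with each other, without knowing which cells the second came from. In peaks with identical limits, which cover the same bases and so share mappability and GC content, the ratio of background in *Uhrf1* KO lists over wild-type lists on chromosome 8 was 0.989 ± 0.0094 (SD over 4 pairs of lists, which share libraries) times that of the other autosomes. The other autosomes spread from 0.938 to 1.04 in the pair with the most chromosome 8 peaks against wild-type replicate 1. Chromosome 8 lay within that range at 0.987. By the median over peaks it lay lower, at 0.942 and 0.986 against wild-type replicate 1 and 0.940 and 0.953 against replicate 2, the last of these the lowest of the 19 autosomes.

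**Figure D2:**
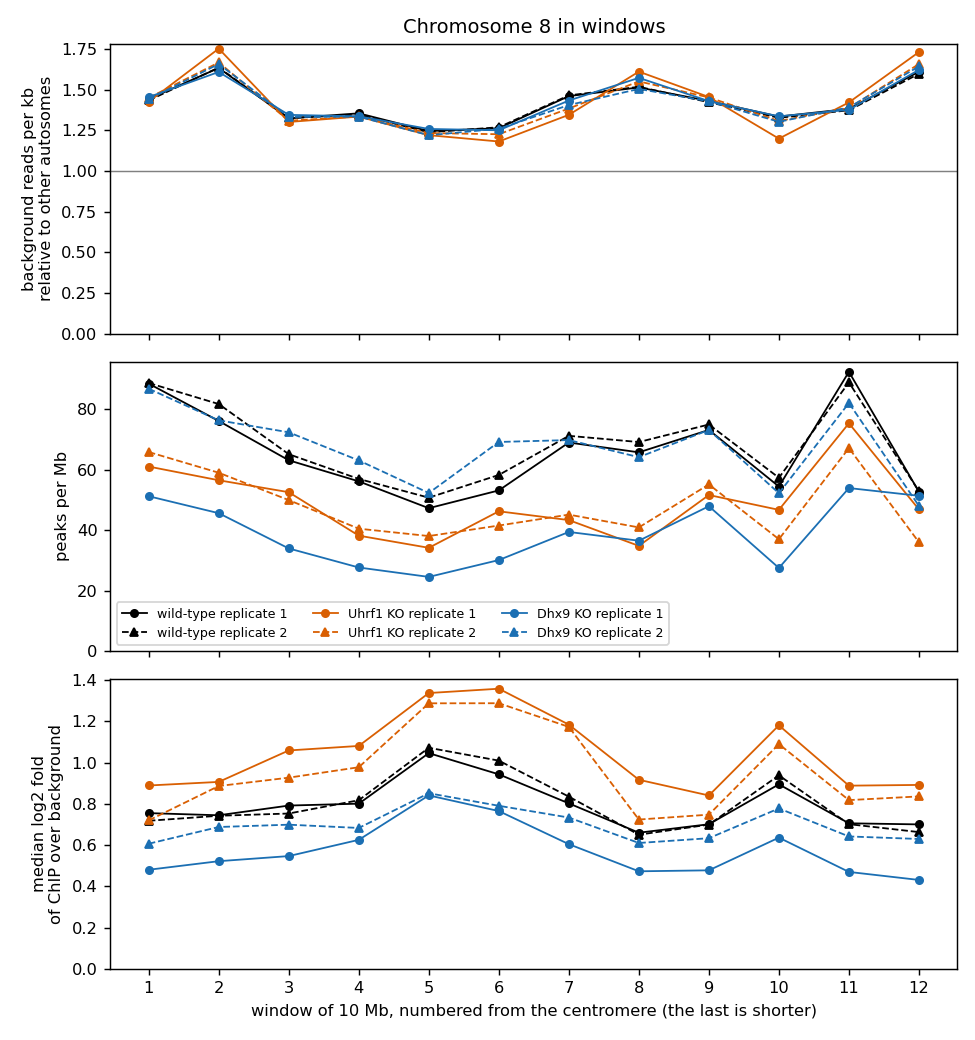
Background reads per kb relative to the other autosomes, peaks per Mb and median log2 fold of ChIP over background in 12 windows of chromosome 8 numbered from the centromere, with 1 line per library. All windows are above 1 for background in all 6 lists, and *Dhx9* KO replicate 1 has the fewest peaks in all windows but 8 and 12 and the lowest folds in all 12.

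ChIP reads per kb were raised less than the background. The density in called bases was 55.1 and 52.7 reads per kb in wild-type lists, 28.8 and 52.7 in *Uhrf1* KO lists and 53.0 and 56.3 in *Dhx9* KO lists. These were 1.19 and 1.18, 1.05 and 1.14, and 1.16 and 1.15 times the median of the other autosomes. Chromosome 14 was higher, at 1.25 and 1.29 in wild-type and 1.27 and 1.18 in *Dhx9* KO lists. In *Uhrf1* KO replicate 1 chromosome 8 ranked 8 among the 19 autosomes, with chromosome 2 at 2.48, and in replicate 2 it ranked 1. With the median over peaks, chromosome 8 was at 0.990 in *Uhrf1* KO replicate 1 and at 1.07 to 1.16 in the other 5 lists. Enrichment, the log2 fold that the authors' peak caller gave, was low. Its median on chromosome 8 was 0.77 in both wild-type lists, 1.01 and 0.90 in *Uhrf1* KO lists and 0.53 and 0.68 in *Dhx9* KO lists. The medians of the other autosomes centred on 1.06 and 1.07, 1.58 and 1.27, and 0.92 and 1.03. In each list, chromosome 8 was the lowest of the 19 autosomes.

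Peaks were nonetheless most numerous on chromosome 8 in 5 of the 6 lists. Wild-type cells had 66.4 and 68.5 peaks per Mb, against a median of 44.3 and 46.0 on the other autosomes. *Uhrf1* KO cells had 49.0 and 48.4 against 26.7 and 36.3. *Dhx9* KO replicate 2 had 68.1 against 47.8, while *Dhx9* KO replicate 1 had 38.7 against 49.0, the lowest of the 19 autosomes. Peaks covered 30.6% and 30.2% of the interval in wild-type cells, 16.4% and 23.8% in *Uhrf1* KO cells and 13.9% and 30.8% in *Dhx9* KO cells. The ratio to the other autosomes was 1.49 ± 0.0090 (SD, n = 2) in wild-type, 1.58 ± 0.35 in *Uhrf1* KO and 1.11 ± 0.45 in *Dhx9* KO cells. The spread between *Dhx9* KO replicates was larger than the distance of their mean from wild-type.

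The excess of peaks depended on the threshold. At an FDR of 1e-10 or less, chromosome 8 had 1.16 and 1.12 times the peaks per Mb of the other autosomes in wild-type lists, 1.13 and 1.07 in *Uhrf1* KO lists and 0.335 and 1.04 in *Dhx9* KO lists. Fold is taken over background reads, which were raised more than ChIP reads on chromosome 8, and the effect of this on a fold filter was not tested. With only peaks of a log2 fold of at least 1, the wild-type lists had 0.843 and 0.863. The *Uhrf1* KO lists then had 1.14 and 0.864 and the *Dhx9* KO lists 0.290 and 0.635. Among regions with a peak in both wild-type libraries, 14.5% on chromosome 8 and 3.79% on the other autosomes had a mean log2 fold under 0.5, and 14.6% against 29.9% had 1.5 or more, in the regions merged with the *Dhx9* KO lists.

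The peaks of chromosome 8 lay much as those of other autosomes do. In wild-type replicate 1, 62.2% of their centres were intergenic, 32.9% in introns, 2.31% in exons of coding genes and 2.57% within 1 kb of a coding start. The medians of the other autosomes were 61.5%, 32.4%, 2.99% and 3.11%. Repeats, as soft-masked in the reference, made up 26.6% of the called bases in that list and 28.0% at the median of the other autosomes. In *Uhrf1* KO replicates 1 and 2 they made up 33.4% and 27.8%, the lowest of the 19 autosomes in both, where the others centred on 44.6% and 32.3%. In *Uhrf1* KO replicate 1 30.03% of the centres were intronic, the highest share of the 19.

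ChIP reads of the knockouts were next compared with wild-type in peaks with identical limits. On chromosome 8, *Dhx9* KO replicate 1 had 0.750 and 0.793 times the ratio of the other autosomes, against wild-type replicates 1 and 2, over 250 and 255 peaks. The other autosomes ranged from 0.894 to 1.18 and from 0.924 to 1.21. *Dhx9* KO replicate 2 had 1.02 and 1.04, over 290 and 301 peaks, inside the range of the other autosomes. Chromosome 8 was thus the lowest autosome in one *Dhx9* KO library and not in the other, and their mean of 0.9 ± 0.15 (SD over 4 pairs) did not differ from 1 by more than its spread. Peaks with identical limits favour ratios near 1, because a peak that shrank or vanished is not among them.

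The lower ratio of *Dhx9* KO replicate 1 was found in each window. Its median over peaks was 0.724 to 0.936 in the 12 windows against wild-type replicate 1 and 0.699 to 0.895 against wild-type replicate 2. Some windows held as few as 5 peaks. Between the *Dhx9* KO libraries, replicate 2 had 1.21 times as many reads as replicate 1 relative to the other autosomes, over 137 peaks. The background reads of these lists are those of the wild-type lists, so fewer copies of the chromosome and less H3K9me3 per copy cannot be told apart in this library.

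The *Uhrf1* KO libraries also differed from each other. *Uhrf1* KO replicate 1 had 0.985 and 0.986 against the wild-type replicates, over 114 and 112 peaks, in the middle of the range of the autosomes. *Uhrf1* KO replicate 2 had 0.920 and 0.882, over 455 and 471 peaks, the lowest of the 19 autosomes in both cases. The mean was 0.943 ± 0.052 (SD over 4 pairs). The other autosomes reached down to 0.930 and 0.947 in the comparisons with *Uhrf1* KO replicate 2.

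**Figure D3:**
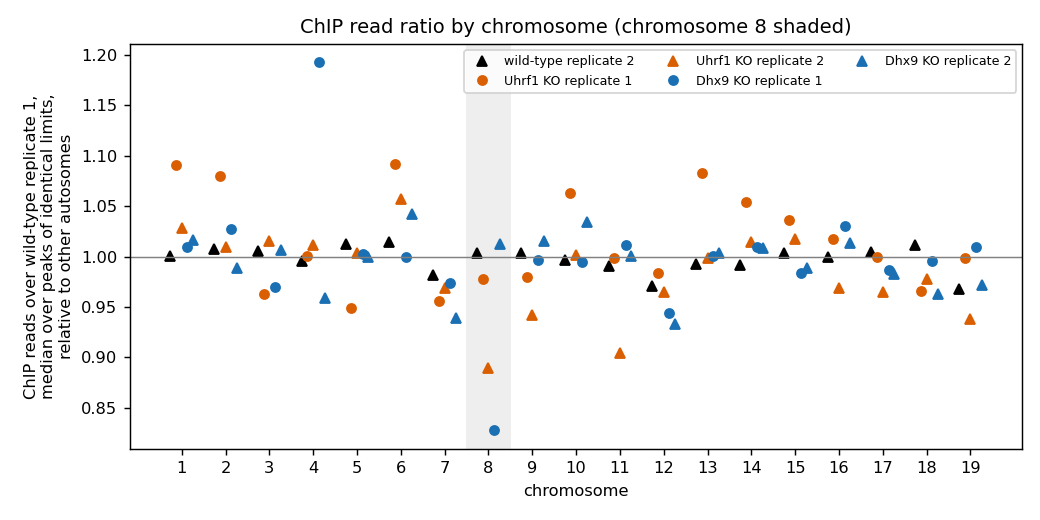
ChIP reads of 5 libraries over wild-type replicate 1 by autosome, as the median over peaks of identical limits, divided by the median of the autosomes other than chromosome 8; the axis does not start at 0. On chromosome 8 *Dhx9* KO replicate 1 lies at 0.827 and *Uhrf1* KO replicate 2 at 0.889, while *Dhx9* KO replicate 2 lies at 1.01.

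Whole regions were then followed. Overlapping peaks of the 4 lists in a comparison were merged. A region called in the wild-type pair and absent from the knockout pair counted as lost, and the opposite as gained. Of 4973 chromosome 8 regions, 1190 were lost in *Uhrf1* KO cells (23.9%), where 24.2% were lost over all chromosomes, and chromosome 8 ranked 12 among the autosomes. The count was 276 with equal numbers of peaks in the lists and 1427 to 2310 leaving out 1 library. Of 3198 regions called in both *Uhrf1* KO libraries, 134 were gained (4.19%), against 8.51% over all chromosomes, the lowest share of the 19 autosomes. This count was 668 with equal numbers of peaks and 252 to 747 leaving out 1 library. The alternative counts of lost and gained regions were made on chromosome 8 only. Whether they moved alike over all chromosomes was not tested. Of 4916 regions, 607 were lost in *Dhx9* KO cells (12.3%), against 6.97% over all chromosomes, and 53 of 2867 were gained (1.85%), against 8.74%. These were the highest share lost and the lowest share gained of the 19.

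**Figure D4:**
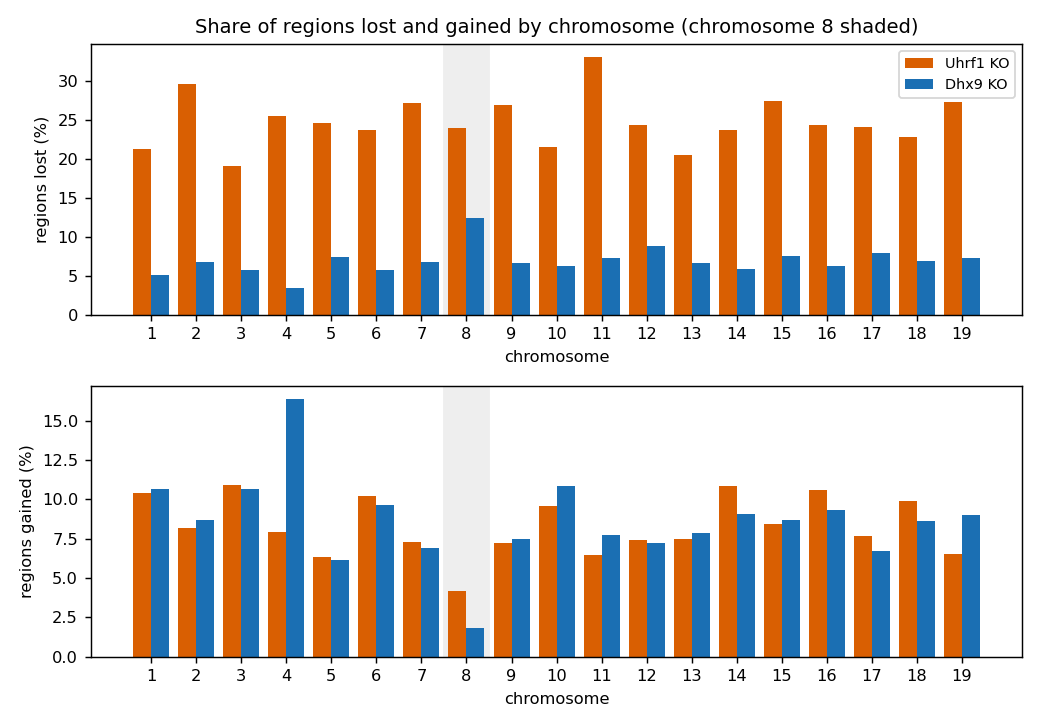
Share of regions lost (top, of regions called in both wild-type libraries) and gained (bottom, of regions called in both knockout libraries) by autosome for *Uhrf1* KO and *Dhx9* KO cells. On chromosome 8, 12.3% were lost in *Dhx9* KO cells, the highest bar of that series, and 1.85% and 4.19% were gained in *Dhx9* KO and *Uhrf1* KO cells, the lowest bars of theirs.

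The losses in *Dhx9* KO cells followed replicate 1. Of the wild-type replicate 1 regions, *Dhx9* KO replicate 1 lacked 3106 of 5982 on chromosome 8 (51.9%), against 23.9% over all chromosomes. *Dhx9* KO replicate 2 lacked 1331 (22.3%), against 25.4%. Of 2595 chromosome 8 regions called in the 5 other lists, 623 were absent in *Dhx9* KO replicate 1 (24.0%), against 5.46% on the other autosomes. For *Dhx9* KO replicate 2 the share was 0.705%, against 1.70%. Judged on 1 knockout library, 707 regions were lost without replicate 1 and 2435 without replicate 2, and 1403 and 134 were gained. These last counts were made on chromosome 8 only, so they cannot be set against a share over all regions.

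The shares also differed between regions of similar fold. Fold is taken over the background, which was denser on chromosome 8, so a class does not match ChIP reads between chromosomes. The fold of a region in a library was the highest of its peaks. Within regions of a mean wild-type log2 fold of 0.5 to 1, *Dhx9* KO replicate 1 lacked 47.2% on chromosome 8 and 15.6% on the other autosomes, and within regions of 1.5 or more it lacked 23.0% and 11.4%. *Dhx9* KO replicate 2 lacked 13.8% and 26.6% in the first class and 5.29% and 7.48% in the second. In *Uhrf1* KO cells the order was the reverse of that in *Dhx9* KO replicate 1 for weak regions. *Uhrf1* KO replicate 1 lacked 42.4% of the chromosome 8 regions of a fold of 0.5 to 1 and 72.7% of those on other autosomes, and replicate 2 lacked 29.3% and 41.0%. At 1.5 or more the pairs were 17.7% and 18.8%, and 12.7% and 9.47%.

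**Figure D5:**
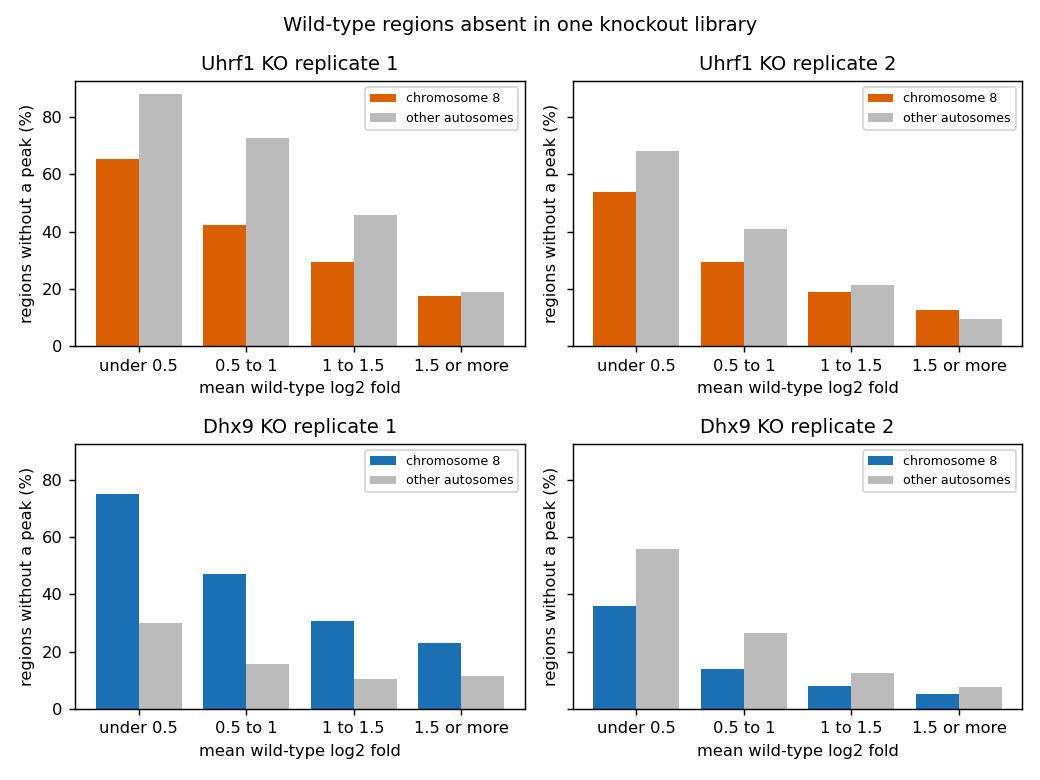
Share of regions called in both wild-type libraries that had no peak in 1 knockout library, by the mean log2 fold in wild-type cells, for chromosome 8 (coloured) and the other autosomes (grey). *Dhx9* KO replicate 1 lacked more on chromosome 8 than elsewhere in all 4 classes, and *Dhx9* KO replicate 2 lacked less.

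Losses were spread along the chromosome and overlapped between the knockouts. In windows of 10 Mb, 19.1% to 37.4% of regions were lost in *Uhrf1* KO cells, with the highest share in window 8, and 7.69% to 16.5% in *Dhx9* KO cells. In the regions merged over all 6 lists, 405 of chromosome 8 were lost in both knockouts, which is 36.9% of the 1099 lost in *Uhrf1* KO and 70.6% of the 574 lost in *Dhx9* KO cells. On the other autosomes these shares were 17.97% and 67.3%. Both counts share the wild-type libraries. Of the merged regions called in both wild-type libraries, *Dhx9* KO cells lost 574 of 4625 on chromosome 8 and 3959 of 62205 on the other autosomes. A larger share lost in *Dhx9* KO cells raises the overlap by itself, so 36.9% against 17.97% is no sign of closer overlap on chromosome 8. Whether the overlap differed beyond this was not tested. In all 6 lists, 1972 of 8607 merged regions of chromosome 8 had a peak (22.9%), against 21.9% on the other autosomes, and 2439 had a peak in 1 list alone (28.3%), against 28.7%.

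Lost regions were shorter and weaker than kept ones, a difference that the merging of peaks favours by construction. A lost region joins wild-type peaks only, while a kept region also joins knockout peaks. The fold is the highest of a region's peaks, which favours regions that join more peaks. Weak regions also lie closer to the calling threshold. Length and fold apart from these effects were not tested, so the values are a description. In *Uhrf1* KO cells, lost regions of chromosome 8 had a median length of 2.6 kb and a median wild-type log2 fold of 0.67, and those kept in both libraries 6.8 kb and 0.99. The values in *Dhx9* KO cells were 2.6 kb and 0.60 for lost and 7 kb and 1.01 for kept regions. GC content was 46.5% in regions lost and 44.4% in regions kept in *Uhrf1* KO cells, and 46.8% and 44.7% in *Dhx9* KO cells.

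The strongest lost regions lay in 1 repeat-rich stretch near 20 Mb. The region chr8:20647001-20650200, of which 92.8% is repeats and which lies 6.30 kb from the coding gene *Gm21119*, had log2 folds of 3.44 and 3.13 in wild-type cells, from 78 and 135 ChIP reads, and no peak in any knockout library. Its background in wild-type lists was only 8 and 18 reads, or 6.67 and 5.63 per kb, against 33.9 on the chromosome. The region chr8:20696201-20698400 had 113 and 100 ChIP reads over 22 and 21 background reads in wild-type cells and no peak in the knockouts. In *Dhx9* KO cells the third was chr8:20700601-20705600, with 160 and 134 reads and likewise no peak in *Uhrf1* KO cells. In *Uhrf1* KO cells the third was chr8:20069201-20073000, with 323 and 248 reads in wild-type cells, and it kept 158 and 87 in *Dhx9* KO cells. How reads of repeats were placed was not tested for these regions.

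The strongest gained regions were intergenic and thin in reads. In *Uhrf1* KO cells they were chr8:81195801-81198600, chr8:29964401-29970600 and chr8:23550601-23552800, with 75 and 137, 128 and 48, and 74 and 74 ChIP reads. Each also had a peak in *Dhx9* KO replicate 2. In *Dhx9* KO cells they were chr8:21213801-21216200, with 66 and 106 reads, chr8:67185801-67188400, with 60 and 131, and chr8:97141201-97143200, with 26 and 71. The first of these had a peak in both *Uhrf1* KO libraries too.

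Changes in read counts were tested where all 4 libraries had a peak over at least 80% of the region. Counts were compared with edgeR's quasi-likelihood test with TMM scaling, the called length as offset and a Benjamini-Hochberg false discovery rate (FDR) of 0.05 over all 2528 regions of the genome in *Uhrf1* KO and 4701 in *Dhx9* KO cells. In *Uhrf1* KO cells 28 of 194 chromosome 8 regions fell (14.4%), against 6.37% of all regions, and 2 rose, against 1.90%. The chromosome was chosen with its ChIP reads known, so its share of calls is a description and no test of the chromosome. The calls did not hold without wild-type replicate 1 or 2, on chromosome 8 or, but for a few, over all regions. More regions fell without *Uhrf1* KO replicate 1, on chromosome 8 and over all regions. Each of these fits has 1 library in a group. The median log2 change of chromosome 8 minus that of the other autosomes was -0.18, -0.16 and -0.21 in them, in that order. DESeq2 gave 13 lower and 2 higher on chromosome 8, where 82 and 29 of all 2528 regions passed. With equal library sizes, edgeR gave 0 of either, on chromosome 8 and over all regions. In *Dhx9* KO cells 1 of 224 fell (0.446%), against 0.489%, and 0 rose, against 0.0425%. DESeq2 also gave 1 and 0 there, where 29 and 2 of all 4701 regions passed. At an unadjusted p under 0.05, edgeR gave 30 lower and 1 higher in *Dhx9* KO cells (13.4% and 0.446%), against 7.68% and 4.42% of all regions.

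As a description of a chromosome chosen with its ChIP reads known, the log2 changes of chromosome 8 regions were shifted down as a group. Their median was -0.21 in *Uhrf1* KO cells, against -0.05 on the other autosomes, and 143 of 194 regions were below 0 (73.7%), against 56.8% of all regions. The median of chromosome 8 was the lowest of the 19 autosomes, and chromosome 19, next to it, was at -0.19. In *Dhx9* KO cells the median was -0.11 against 0.02, again the lowest, and 161 of 224 were below 0 (71.9%), against 49.1%. Between single libraries the shift was -0.28 and -0.29 for *Dhx9* KO replicate 1 against the wild-type replicates but 0.02 and 0.03 for replicate 2. It was -0.11 and -0.12 for *Uhrf1* KO replicate 1 and -0.21 and -0.24 for replicate 2. The wild-type replicates differed from each other by 0.0045 and -0.01 on the regions of the *Uhrf1* KO and *Dhx9* KO comparisons, less than the shift of any knockout library, but the *Dhx9* KO libraries differed from each other by 0.29. Without *Dhx9* KO replicate 1, 16 regions of chromosome 8 had lower counts and 16 higher by edgeR, where 282 and 208 of all 4701 regions did. Without replicate 2, 71 had lower and 0 higher, where 505 and 225 of all regions did.

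A region near 20 Mb fell in both comparisons. In the *Dhx9* KO comparison it was chr8:20320801-20332400, over the noncoding RNA gene *Gm26804*, with 10284 and 9277 ChIP reads in wild-type libraries against 5528 and 5802 in *Dhx9* KO libraries. The groups did not overlap, and the log2 change was -0.98 ± 0.14 (SE, FDR 0.0038 by edgeR). Part of it, chr8:20321001-20326200, had 827 and 719 reads in wild-type libraries against 229 and 521 in *Uhrf1* KO libraries, a log2 change of -0.99 ± 0.12 (SE, FDR 2.4e-04 by edgeR). Its background density of 109 reads per kb in wild-type lists, and 279 and 274 over the longer region, stood far above the 33.9 of the chromosome, and how reads of near-identical copies were placed was not tested.

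A further 4 regions passed the test in *Uhrf1* KO cells among the largest changes. The 200-base region chr8:20602401-20602600, with 158 reads in each wild-type library and 24 and 80 in *Uhrf1* KO cells, fell by 1.46 ± 0.22 on the log2 scale (SE, edgeR FDR 7.7e-04), and its background was 180 reads per kb. The region chr8:67276601-67279800, over the small nucleolar RNA gene *Gm24677*, had 302 and 259 wild-type reads against 71 and 164 and fell by 1.03 ± 0.16 (SE, edgeR FDR 0.0012). Both regions that rose had their highest counts in *Uhrf1* KO replicate 2, and the second had fewer raw reads than wild-type in replicate 1. The region chr8:33230201-33234200, 0.183 kb from *Wrn*, which encodes a RecQ helicase, had 185 and 162 wild-type reads against 194 and 392, a log2 change of 0.85 ± 0.15 after scaling (SE, edgeR FDR 0.0021). The other, chr8:25877201-25883400 in an intron of *Kcnu1*, a sperm potassium channel gene, changed by 0.54 ± 0.14 (SE, edgeR FDR 0.022), with 353 and 333 wild-type reads against 310 and 534.

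The 3 regions strongest in wild-type cells and called in all 6 lists were 1, 4.6 and 2 kb long, and were chosen by their wild-type folds. Repeats made up 100%, 71.7% and 100% of their bases, in that order. The strongest, chr8:115283001-115284000, lies in an intron of *Wwox*, a tumour suppressor gene, and had log2 folds of 4.48 and 4.53 in wild-type, 3.18 and 4.26 in *Uhrf1* KO and 3.44 and 4.22 in *Dhx9* KO cells. Its ChIP reads were 120 and 119, 50 and 195, and 65 and 111, over 6 or 8 background reads. In chr8:81185601-81190200 the highest fold of its peaks was 4.37 and 4.61 in wild-type, 1.98 and 4.299 in *Uhrf1* KO and 0.66 and 3.62 in *Dhx9* KO cells. In chr8:100115601-100117600, wild-type reads were only 54 and 45, and *Uhrf1* KO replicate 1 had no background read.

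The longest stretches called in both wild-type libraries were chosen by their wild-type length, so their values in the knockouts are a description and no sign of a change. The longest, chr8:88877801-88935000, covers 57.2 kb between genes, 92.2 kb from *Sall1*, which encodes a zinc finger transcription factor of kidney development. It was 1 peak in each wild-type list, with 3383 and 3304 ChIP reads and folds of 0.94 and 0.96. *Uhrf1* KO cells had 4 peaks each there, over 15.6 kb and 50.6 kb, and *Dhx9* KO cells 3 and 5, over 45.6 kb and 53 kb. The other 2 longest, chr8:120892401-120941000 and chr8:88407801-88454400, were also 1 peak in each wild-type list and held 2 to 8 peaks in the knockout lists.

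A peak lay over 598 and 586 of the 958 coding genes between the limits in wild-type cells (62.4% and 61.2%), 350 and 412 in *Uhrf1* KO cells (36.5% and 43.0%) and 405 and 507 in *Dhx9* KO cells (42.3% and 52.9%). On the other autosomes the shares were 52.8% and 52.7%, 30.05% and 41.7%, and 55.3% and 47.6% of 17731 genes. Chromosome 8 was thus above them in 5 libraries and below them, the lowest of the 19 autosomes, in *Dhx9* KO replicate 1. The reads given below are raw sums over all peaks that touch a gene, which can extend past it, and are not scaled between libraries. A peak that touches neighbouring genes is counted for each of them. The list of *Uhrf1* KO replicate 1 held 6703081 ChIP reads in all and the other 5 held 16966576 to 20875020. Within a list the genes named are those with the most wild-type reads, a choice that favours lower values elsewhere, so their values are a description. For 10 developmental transcription factor genes the counts were 7 and 6, 1 and 2, and 3 and 4. *Nfix*, a nuclear factor I gene of neural and muscle development, had 3268 and 3509 ChIP reads in wild-type cells, no peak in *Uhrf1* KO cells and 1413 and 1375 reads in *Dhx9* KO cells. *Irx5*, a homeobox gene, had 749 and 628, then no peak and 177, then 575 and 361. *Foxl1*, a forkhead gene, had 139 and 1471 reads in wild-type cells and no peak in the 4 knockout lists.

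Of 8 cadherin genes, which encode calcium-dependent adhesion proteins, 7 and 8 had a peak in wild-type, 6 and 8 in *Uhrf1* KO and 8 and 8 in *Dhx9* KO cells. *Cdh15*, the muscle cadherin gene, which holds a site with imprinted-like DNA methylation, had 2823 and 2681 reads in wild-type, no peak and 67 reads in *Uhrf1* KO, and 1572 and 1916 in *Dhx9* KO cells. Its strongest stretch, chr8:122858801-122870800, had folds of 1.91 and 2.35 in wild-type cells, no peak in *Uhrf1* KO cells, and folds of 1.24 and 1.88 in *Dhx9* KO cells. By contrast *Cdh13*, a long gene, had 55194 and 50704 reads in wild-type, 19262 and 51368 in *Uhrf1* KO and 28332 and 51982 in *Dhx9* KO cells. *Cdh5*, the cadherin of blood vessel lining, had 2746 and 2590, 558 and 1794, and 1453 and 2339.

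Of 22 zinc finger genes, 14 and 13 had a peak in wild-type, 11 and 10 in *Uhrf1* KO and 9 and 12 in *Dhx9* KO cells. *Zfp423*, a transcription factor gene of neural and fat development, had 8866 and 9208 reads in wild-type, 115 and 1108 in *Uhrf1* KO and 1486 and 5219 in *Dhx9* KO cells. *Zfp827* had 4256 and 3811, 470 and 1982, and 899 and 2032. *Zfp961* had 1831 and 1345, 237 and 531, and 556 and 1630.

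All 15 carboxylesterase genes, whose enzymes split esters in liver and gut, had a peak in both wild-type libraries and in *Dhx9* KO replicate 2. *Uhrf1* KO cells had a peak at 8 and 12 of them and *Dhx9* KO replicate 1 at 12. *Ces2h* had 1902 and 1729 in wild-type, 918 and 2149 in *Uhrf1* KO and 1031 and 3264 in *Dhx9* KO cells. *Ces2f* had 691 and 1123, 33 and 118, and 260 and 1314. *Ces2e* had 937 and 584, 150 and 344, and 242 and 1256.

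Of 46 defensin genes, which encode antimicrobial peptides, 16 had a peak in each wild-type library, 9 and 12 in *Uhrf1* KO and 7 and 19 in *Dhx9* KO cells, and 22 had none in any list. *Defb15* had 765 and 738 reads in wild-type, 412 and no peak in *Uhrf1* KO and 113 and 353 in *Dhx9* KO cells. *Defb35* had 627 and 738, 349 and 662, and 149 and 761. *Defb33* had 396 and 162, no peak and 54, and no peak and 377. Near-identical copies in this cluster make read placement uncertain.

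Of the 4 metallothionein genes, which bind metal ions, *Mt1* and *Mt2* had no peak in any list. *Mt4* had 1316 and 1057 reads in wild-type, 45 and 374 in *Uhrf1* KO and 722 and 811 in *Dhx9* KO cells, and *Mt3* had 1316 and 222 reads in wild-type cells and no peak in the knockouts. Neighbouring genes can share a peak, so the equal 1316 reads of *Mt4* and *Mt3* may not be separate signals. Of 3 chromatin genes, *Ctcf* and *Asf1b* had no peak, and *Smarca5*, a chromatin remodeller gene, had 121 and 128 reads in wild-type, 34 and 151 in *Uhrf1* KO and 49 and 61 in *Dhx9* KO cells.

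The limits of the interval follow from coordinates and not from a measured level. In wild-type replicate 1, the peak just outside the lower limit had 67 ChIP and 27 background reads and the one just inside 54 and 26. At the upper limit the peak just inside had 106 and 65 and the one just outside 80 and 69. The peak just outside the upper limit was larger in some lists, with 2745 and 1460 reads over 39800 bases in *Dhx9* KO replicate 2. On chromosome 8 outside the limits there were 417 to 680 peaks per list.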

How the data were processed

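H3K9me3 ChIP-seq peak lists of 6 libraries (2 each of wild-type, *Uhrf1* KO and *Dhx9* KO cells) were used; genotypes and replicate numbers come from the sample titles. The inputs and the reporter time points of the series were not analysed here. Reads were aligned with Bowtie2 2.3.4.3 and peaks called per library in 200-base bins with epic2 0.0.51, keeping duplicates (the submitters' notes list SICER 0.0.51). For each peak, the deposited lists hold raw ChIP counts, raw background counts, the authors' p-value with its FDR, and the authors' log2 fold. Fold and FDR served to describe, rank and filter peaks. The methods name wild-type input as background and subsampling to a common depth before calling, but the *Uhrf1* KO lists carry another set of background counts. The columns of all lists belong to the 6 libraries.

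The members and the gene lists were chosen with earlier results of these data known. Other autosomes were trimmed by the same distances from both ends as chromosome 8. Levels were pooled reads per called kb over the median of 18 autosomes. The lists held 6703081 to 20875020 ChIP reads, and 546084 to 1998883 of them on chromosome 8, so counting error is small beside the spread of libraries. Overlapping peaks were merged into regions. Counts were tested in R 4.3.3 with edgeR 4.0.16 (DESeq2 1.42.0 as an alternative) and checked on simulated data; the filter on low counts removed 0 regions. Genes come from GENCODE vM21 and sequences from the mm10 reference; the other work was done in Python 3.11.15 with pandas 2.3.3. Named regions are, per comparison, the 3 with the largest change in each direction past the FDR, the 3 strongest lost and gained regions of at least 2 kb, the 3 strongest in all 6 lists and the 3 longest wild-type stretches; genes are *Cdh15* and up to 3 per list with the most wild-type reads. Alternatives were other summaries, filters, GC classes, scalings, fits and leaving out each library; scaling each chromosome by its own total, the classes of fold, the windows of changes and the features of lost regions were added after seeing the data.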

Additional observations from a re-analysis of the deposited data

How the results depend on the processing

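Values are given for wild-type, *Uhrf1* KO and *Dhx9* KO lists in turn. Background density of chromosome 8 over the other autosomes stayed above 1 throughout. It was 1.40, 1.41 and 1.40 by the median over peaks, 1.43, 1.42 and 1.42 without the top 1% of background, 1.45, 1.45 and 1.46 in peaks of 2 kb or longer, 1.42, 1.40 and 1.42 over whole autosomes, and 1.503, 1.5 and 1.53 at an FDR of 1e-10. With GC classes it was 1.41 in wild-type and 1.44 in *Uhrf1* KO lists. ChIP density was 1.15, 1.03 and 1.10 by the median over peaks. In wild-type and *Dhx9* KO lists it was 1.16 and 1.11 without the top 1%, 1.23 and 1.19 in long peaks, 1.14 and 1.14 over whole autosomes and 1.19 and 1.32 at the strict FDR, and it was 1.17 in wild-type lists with GC classes. Peaks per Mb were 1.14, 1.10 and 0.688 at the strict FDR, and 0.853, 1.00 and 0.463 with a fold minimum of 1 on the log2 scale. With equal numbers of peaks they were 0.896 in wild-type and 0.502 in *Dhx9* KO lists, and over whole autosomes 1.46 in wild-type lists. Covered bases gave 2.01 in wild-type and 2.01 in *Uhrf1* KO lists. Leaving out 1 *Dhx9* KO library gave 0.790 to 1.43 peaks per Mb. The background ratio of *Uhrf1* KO over wild-type was 0.959 at 90% overlap, 0.955 by the median and 1.01 with GC classes, the other side of 1. The cause of these changes was not tested. The ChIP ratios in identical peaks moved by less than their spread under the alternatives run.

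Regions lost in *Uhrf1* KO cells numbered 559 at the strict FDR, 332 at the higher fold and 276 with equal numbers of peaks, and 1427 to 2310 leaving out a library. Gains there were 373 at the higher fold and 668 with equal numbers, and 252 to 747. In *Dhx9* KO cells losses were 707 to 2435 leaving out a library, and gains 8, 12 and 25 under the 3 thresholds and 124 to 1403. These lost and gained counts were made on chromosome 8 only, without the share over all regions. Regions lower in *Uhrf1* KO cells numbered 13 with DESeq2, 0 with equal library sizes, 0 over all regions called in every library, 5 with all 6 libraries in the fit, 7 with each chromosome scaled by its own total, and 0 to 65 leaving out a library. Higher regions numbered 0, 0, 0 and 4 in the same order from equal library sizes on, 5 without the length offset and 0 to 8 leaving out a library. The median shift in *Uhrf1* KO cells was -0.071 over all regions called in every library and -0.21 to -0.11 leaving out a library. Regions lower in *Dhx9* KO cells numbered 0 over all regions called in every library, 0 with all 6 libraries, and 1 to 71 leaving out a library, higher ones 0 to 16, and the shift ran from -0.29 to 0.011, turning sign without *Dhx9* KO replicate 1. Same-numbered libraries did not deviate together (correlations of 0.065 and -0.069), so the replicate block is no pairing of cultures. With the replicate block, 23 regions were lower and 3 higher in *Uhrf1* KO cells, and 4 lower and 0 higher in *Dhx9* KO cells, with shifts of -0.16 and -0.13. Over all chromosomes the block gave 151 and 41 of 2528, and 64 and 16 of 4701. For *Uhrf1* KO cells, 26 of all 901 regions were lower with all 6 libraries in the fit. With each chromosome scaled by its own total, 77 of all 2528 were lower and 68 higher. Without the length offset, 134 of all were higher.

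With 2 libraries a genotype and 2 sets of background reads, precision is limited by libraries and not by counts.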
